A study of Caenorhabditis elegans with 4 samples.

Results

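The regions described here are the binding sites called for the transcription factor ELT-3 on the X chromosome of Caenorhabditis elegans. All peaks that the deposited list places on X were taken, 834 of the 5338 peaks in the list, or 15.6%. The list came from chromatin immunoprecipitation and sequencing (ChIP-seq) of an ELT-3::GFP fusion protein in fed first-stage (L1) larvae. It rests on 4 libraries, namely 2 ChIP libraries precipitated with a goat antiserum against GFP and 2 input DNA libraries, 1 of each kind in each of 2 replicates. All 4 libraries came from hermaphrodites of strain OP75 kept at 20 °C, with the mutation unc-119 (ed3) on chromosome III and the integrated transgene wgIs75, which holds elt-3::TY1::EGFP::FLAG together with unc-119 (+). The animals thus carried a mutant unc-119 gene, a rescuing unc-119 copy and a tagged elt-3 copy in ChIP and input alike. Formaldehyde was used at 2% for all 4 libraries. OP75 is 1 transgenic line made by bombardment, and chromatin was taken from whole animals, so cells that lack the fusion protein contributed chromatin as well.

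ELT-3 is a GATA-type zinc finger protein of the hypodermis, the epidermal tissue that lies beneath the cuticle and secretes it. GATA factors are named for the short DNA motif that they recognise, and ELT-3 acts in the hypodermis downstream of other GATA factors that set the epidermal fate. Hermaphrodites carry a pair of X chromosomes, and in their somatic cells a dosage compensation complex binds X and lowers its transcription. The elt-3 gene itself lies on X in the RefSeq annotation (assembly WBcel235). The peaks are in coordinates of another build, WormBase WS180, so no peak was assigned to a gene, and whether a peak lies in the elt-3 sequence carried by the transgene was not tested.

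For each peak the list gives its 2 borders and a q-value, meaning a p-value adjusted for multiple testing. The list is combined over the replicates and gives no value per library, so read depth is unknown and no spread between replicates can be computed. X was therefore set beside each of chromosomes II, III, IV and V and their sum as a description, with no test of any difference. The exact binomial 95% intervals on shares and the order-statistic 95% intervals on medians treat peaks as independent, cover counting error over the peaks of this list alone, and carry no information on the variation between experiments.

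ELT-3 peaks were sparser on X than on II, III and IV and denser than on V, but they were wider, so that X was covered by peaks to about the same degree. X held 47.2 peaks per Mb, against 56.5 on II, 61.6 on III, 55.6 on IV and 41.7 on V, with lengths taken from position 1 to the last peak end (17.7 Mb for X). The ratio of X to chromosomes II to V together (52.7 per Mb) was 0.894. It was 0.818 without chromosome V, 0.912 without IV, 0.913 without II and 0.935 without III, and 0.863 with chromosome I added. For peaks with q-values below 1e-05 the ratio was 0.957, and for those below 1e-20 it was 0.868. Joining gaps of up to 500 bp gave 0.932. Peaks covered 546 kb of X, or 3.09% of its length, against 2.90% of II to V together. The single chromosomes ranged from 2.47% on V to 3.29% on III, and X lay inside that range.

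By most cuts of the q-value the shares on X and on II to V lay close together. Among these 5 chromosomes, with chromosome I left out, X held relatively more of the peaks at the extreme end. The median q-value was 4.80e-06 on X and 9.80e-06 on II to V. On X, 449 peaks had a q-value below 1e-05, or 53.8% (interval 50.4% to 57.3%), against 50.3% on II to V. Another cut, at 1e-20, was passed by 77 peaks of X, or 9.23%, against 9.51% on II to V. Below 1e-50 there were 13 peaks on X, against 7 on II, 12 on III, 11 on IV and 10 on V. Below 1e-100 there were 6 peaks on X, against 2 on II, 0 on III, 1 on IV and 4 on V. With chromosome I added, the autosomes held 55 peaks below 1e-50 and 9 below 1e-100, against 40 and 7 on II to V. When the 4388 peaks of these 5 chromosomes were ranked together, X held 10 of the 25 strongest, or 40% (interval 21.1% to 61.3%). It held 13 of the 50 strongest, or 26% (14.6% to 40.3%), and 20 of the 100 strongest, or 20%. Among the 1000 strongest it held 176, or 17.6%. X makes up 20.8% of the summed length and 19.0% of the peaks. The share of X lay above both values among the first 25 and the first 50 ranks, and the interval at 50 ranks includes both.

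Along X, peaks were sparse at the left end and then lay fairly evenly to the right end. In 10 equal parts of the chromosome, density was 27.1 peaks per Mb in the part at the left end and 36.8 in the next. It was 44.1 in part 3 and between 47.5 and 60.5 in the other 7, with the highest value in part 8. The left 50% of the length held 369 peaks and the right 50% held 465. The right end of X was thus not depleted, whereas V and IV were sparse there. The last 20% of X held 50.04 peaks per Mb, against 56.0 on II, 57.0 on III, 29.2 on IV and 22.01 on V. In the first 20% the values were 31.9 per Mb on X, 27.2 on II, 41.4 on III, 51.5 on IV and 26.3 on V. The middle 33.3% of X held 305 peaks, or 36.6% (interval 33.3% to 39.9%), and the 4 autosomes held between 38.2% on III and 47.9% on V there.

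**Figure D1:**
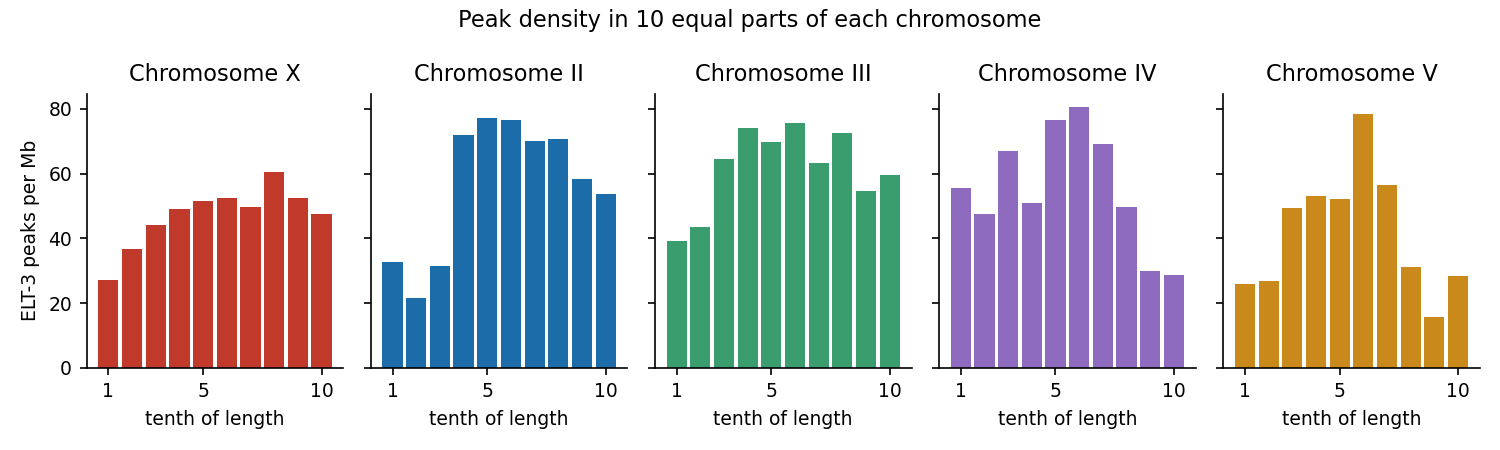
Density of ELT-3 peaks (peaks per Mb, vertical axis) in 10 equal parts of each chromosome from its left to its right end (horizontal axis), 1 bar per part. X climbs from 27.1 per Mb in its first part to 60.5 in part 8 without the central dome of chromosome V, whose parts run from 15.8 to 78.5.

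Complete 1 Mb windows varied less in their counts on X than on II, IV and V, and more than on III. The 17 windows of X held 46.5 ± 11.9 peaks (mean ± SD over windows), with a median of 48, against 53.0 ± 20.1 in the 65 windows of II to V. The coefficient of variation over windows was 25.7% on X, between the 22.5% of III and the 34.5% of IV, while II had 37.0% and V 48.3%. The fullest window of X ran from 13 to 14 Mb, with 71 peaks that covered 50.8 kb. It was followed by the windows from 11 to 12 Mb with 60 peaks and from 10 to 11 Mb with 56. Each of the 4 autosomes had a fuller window, from 83 peaks on II (8 to 9 Mb) to 91 on IV (9 to 10 Mb), with 90 each on III (5 to 6 Mb) and V (11 to 12 Mb). The emptiest windows of X were the first 2, with 20 peaks from 0 to 1 Mb and 28 from 1 to 2 Mb, and then that from 3 to 4 Mb with 35. With windows shifted by 500 kb the emptiest held 34 peaks, and with windows of 500 kb the emptiest held 10 peaks per Mb. On the autosomes the emptiest windows held 25 peaks on II (3 to 4 Mb), 40 on III (1 to 2 Mb), 22 on IV (15 to 16 Mb) and 13 on V (17 to 18 Mb).

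Every complete window of X held at least 1 peak with a q-value below 1e-20, as did every complete window of II, III and IV. The strongest peak per window had a q-value between 1.03e-30 and 1.13e-209, against 5.29e-11 to 1.91e-228 over the windows of II to V. The 3 windows of X with the weakest leading peaks were those from 8 to 9 Mb (X:8210337-8211536, 1200 bp, q-value 1.03e-30), from 10 to 11 Mb (X:10168429-10168902, 474 bp, 6.46e-34) and from 3 to 4 Mb (X:3114656-3118002, 3347 bp, 4.94e-35). The number of peaks with a q-value below 1e-20 ran from 2 to 7 per window on X and from 0 to 15 on II to V. The windows with 0 were on V, as was the window led by a q-value of 5.29e-11. Peaks with q-values below 1e-20 were therefore spread over X in small numbers and not piled up in a few windows. Some of the very strongest of them, described below, lay close together.

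The longest stretches of X without a peak midpoint lay near its left end. The longest spanned 404 kb, between the peak that ended at X:1627438 (q-value 8.92e-17) and the one that started at X:2031427. The next spanned 301 kb, between the first peak of X, which ended at X:11567, and X:312316. The other 3 of the 5 longest spanned 202 kb from X:2593334, 193 kb from X:536354 and 169 kb from X:3246430. All 5 began within the first 18.4% of the chromosome. The 5 longest of II likewise began within its first 21.3%, while on III, IV and V some began beyond the middle. On II the longest such stretch was 316 kb, on III 196 kb, on IV 346 kb and on V 468 kb, so long empty stretches as such were found on the autosomes too. Distances above 100 kb made up 27 of the 833 distances between neighbouring midpoints on X, or 3.24%, against 2.25% on II to V and 4.02% on V alone. Of these 27, 6 lay in the first 20% of X.

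The strongest ELT-3 sites of X lay in 12 places, counting peaks within 30 kb of a stronger one as the same place, a distance chosen after the values had been seen. They are the 15 peaks with the lowest q-values. The leading one, X:1503387-1505307, was 1921 bp wide with a q-value of 1.13e-209, the second lowest of the whole list. It stood alone, with the nearest midpoint 23.5 kb away, and a peak at X:1477879-1478353 on its left side was itself strong (475 bp, q-value 6.76e-33). The second, X:16929159-16932541, was 3383 bp wide with a q-value of 3.88e-200, and the peaks within 30 kb of it were weak, the lowest at 3.08e-06. They lay near opposite ends of X, at 8.51% and 95.7% of its length.

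The sites ranked 3 and 4 on X were broader. The one ranked 3, X:15075620-15079896, was 4277 bp wide (q-value 1.06e-158) and had a peak on either side within 5 kb, at X:15072612-15073294 (q-value 2.24e-20) and X:15081222-15081892 (2.69e-14). The one ranked 4, X:13935868-13940681, was 4814 bp wide (1.16e-147) and belonged to the fullest window. Within 30 kb to its left lay another 2 broad peaks, X:13917073-13918557 and X:13919549-13922270, with q-values of 0.00228 and 1.35e-20.

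The densest concentration of strong binding was found near 6.74 Mb, where 3 of the 15 strongest peaks followed each other. They were X:6735372-6740536 (5165 bp, q-value 1.33e-114), X:6740826-6744942 (4117 bp, 8.01e-81) and X:6748891-6750900 (2010 bp, 1.89e-70). The first and second were 289 bp apart, and joined they would form a region of 9571 bp. With a weak peak of 783 bp between the last 2 (q-value 0.000818), these 4 peaks covered 12.1 kb of 15.5 kb, or 77.8%. Further left, a second group of broad peaks held X:6233632-6236523 (2892 bp, 4.45e-19), X:6240216-6241678 (1463 bp, 1.12e-10) and X:6251592-6256013 (4422 bp, 1.11e-40). This second group was named after its values had been seen.

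A further concentration lay between 12.5 and 12.7 Mb. The widest peak of X, X:12662760-12669222, was 6463 bp wide with a q-value of 3.20e-108, and no midpoint followed it for 93.8 kb. To its left, X:12500621-12501318 and X:12522716-12523583 were narrow for their strength, with 698 bp (2.78e-84) and 868 bp (2.15e-77). They flanked a pair of broader and weaker peaks, X:12509020-12510584 (1565 bp, 1.08e-20) and X:12517076-12519645 (2570 bp, 9.88e-07). Width and strength thus ran in opposite order among these 4 neighbours.

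Of the remaining 5 of the 15 strongest, X:17419540-17423449 near the right end was 3910 bp wide (1.42e-91). It had 4 other midpoints within 10 kb, 1 of them strong (X:17427643-17428220, 578 bp, 3.80e-23). X:863995-864803 (809 bp, 1.82e-70) led the emptiest window of X. X:13112608-13113958 was 1351 bp wide (9.38e-58), X:7986672-7987378 was 707 bp wide (6.26e-49) and X:5467276-5468393 was 1118 bp wide (1.05e-48). Among the 15 peaks the width ran from 698 to 6463 bp with a median of 2010 bp, and 10 were 1300 bp wide or more. The surroundings of these sites were not unusually full. A median of 6 other midpoints lay within 50 kb of them, against 5 for all peaks of X, whose central 50% lay between 4 and 8.

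**Figure D2:**
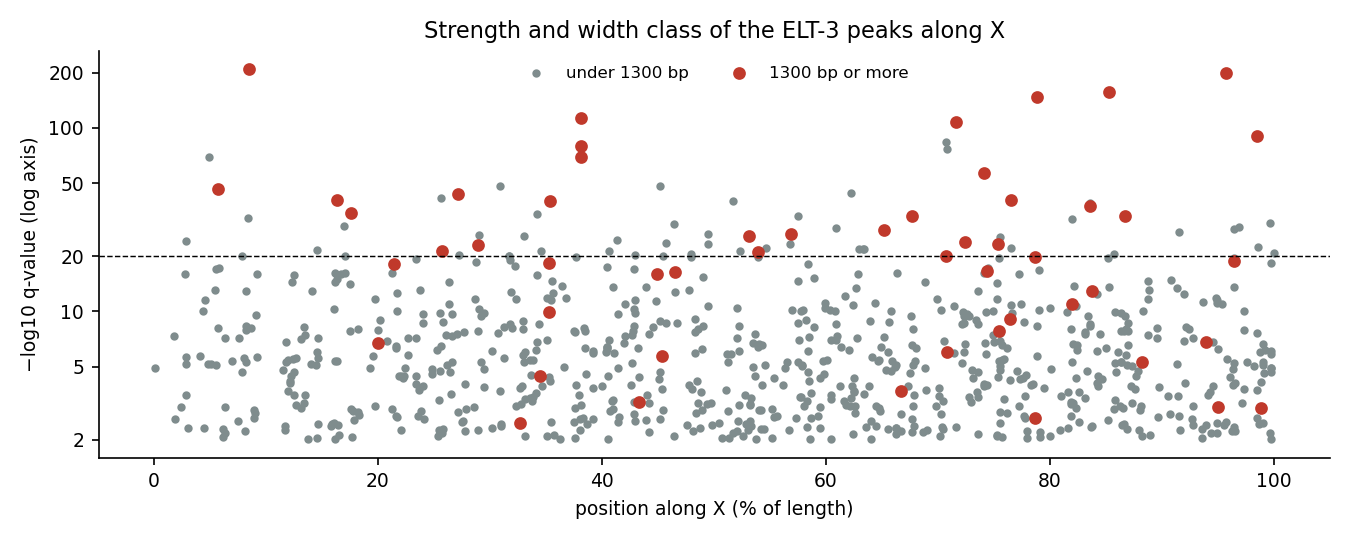
Strength of each of the 834 ELT-3 peaks of X (negative log10 of the q-value, vertical log axis) against its position in percent of the length of X (horizontal axis), with peaks of 1300 bp or more as large red points and a dashed line at a q-value of 1e-20. The 52 wide peaks reach from one end of X to the other, and 27 of them lie above the line.

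**Figure D3:**
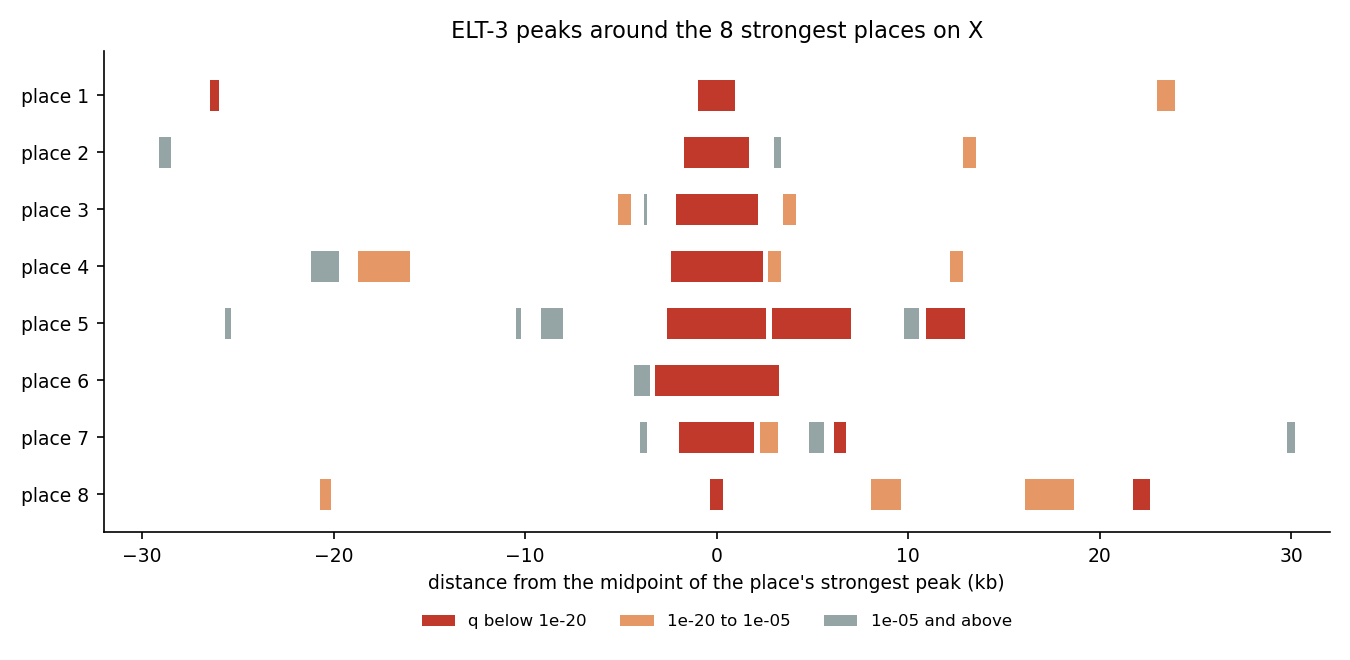
Extent of the peaks around the 8 strongest places of X, 1 row per place in order of strength, as distance in kb from the midpoint of the strongest peak (horizontal axis), coloured by q-value. Place 1 has no other peak within 20 kb, and place 8 holds 2 narrow strong peaks on either side of 2 wider ones. Place 5 holds 3 peaks with q-values below 1e-20, with a weak peak between the last 2.

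The leading site of each autosome was between 2812 and 7715 bp wide. These sites were II:7341643-7349357 (7715 bp, q-value 2.01e-179), III:9050803-9055007 (4205 bp, 1.75e-88), IV:8527218-8531667 (4450 bp, 1.91e-228) and V:8038970-8041781 (2812 bp, 2.42e-126). The peaks of II and III were also the widest of their chromosome, and the widest peaks of IV and V were IV:3644773-3649255 (4483 bp, 1.08e-50) and V:6222213-6230407 (8195 bp, 8.52e-117).

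Peaks of X were wider along its whole length, and not through a few very broad regions. The median was 503.5 bp on X (interval 480 to 531 bp) and 415.5 bp on II to V (409 to 423 bp), a ratio of 1.21. Among the peaks under 1300 bp it was 484.5 bp on X and 405 bp on II to V. In the 17 complete windows of X the median width ran from 440 to 620 bp, against 331.5 to 482 bp in the 65 windows of II to V. All 17 windows of X lay above the median autosomal window of 415 bp, and 11 lay above the widest autosomal window. With windows of 500 kb, 4 of 35 windows of X lay above every autosomal window, and once gaps of up to 500 bp had been joined 3 of 17 did. The widest medians of X were in its left part, with 620 bp from 3 to 4 Mb, 588 bp from 4 to 5 Mb and 570 bp from 5 to 6 Mb. The lowest were 440 bp from 11 to 12 Mb and 442.5 bp from 12 to 13 Mb.

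**Figure D4:**
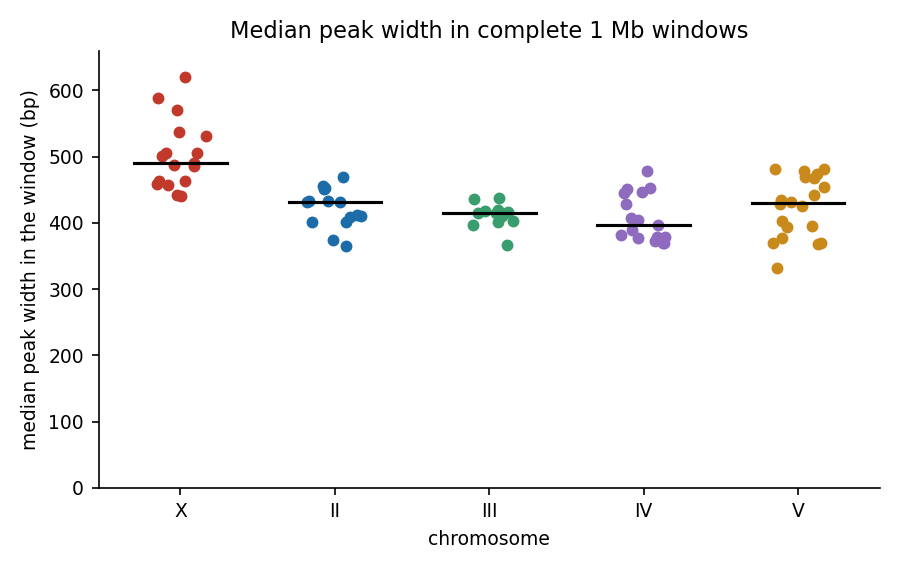
Median ELT-3 peak width in bp (vertical axis) in each complete 1 Mb window of chromosomes X, II, III, IV and V (horizontal axis), 1 point per window, with a bar at the median over windows. The windows of X run from 440 to 620 bp, and 11 of 17 lie above the highest autosomal window at 482 bp.

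The difference was not confined to the middle of the width distribution. The lower quartile was 368 bp on X and 319.25 bp on II to V, and the upper quartile was 730 bp and 611.75 bp. Peaks of 1000 bp or more made up 13.3% on X and 8.58% on II to V. Peaks of 200 to 400 bp made up 30.2% on X and 40.8% on II to V, while those of 400 to 1300 bp made up 61.5% on X and 48.6% on II to V. Narrow peaks were scarce on X, since 17 were under 200 bp, or 2.04%, against 3.48% on II, 5.06% on III, 8.86% on IV and 4.93% on V. The wider median was present in each class of strength. For q-values below 1e-20 it was 1118 bp on X and 800 bp on II to V. Between 1e-20 and 1e-05 it was 568.5 bp on X and 469 bp on II to V, and between 1e-05 and 0.001 it was 413 bp on X and 367 bp on II to V. At 0.001 and above it was 388 bp on X and 299 bp on II to V. A wider region holds more reads to test, so width and q-value are not independent measures.

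Broad sites, taken as 1300 bp or more, numbered 52 on X, or 6.24% of its peaks (interval 4.69% to 8.10%), against 4.95% on II to V (4.26% to 5.72%), with 4.22% on IV as the lowest and 5.62% on V as the highest. Once peaks with gaps of up to 500 bp had been joined, the order turned round, with 8.55% on X and 8.89% on II to V. The 52 peaks made up 22.2% of the covered length of X, against 20.1% on II to V. X lay inside the autosomal range, from 17.0% on IV to 23.9% on V. Just inside the bound lay peaks of 1340, 1342 and 1344 bp, and just outside it peaks of 1273, 1265 and 1261 bp. The windows from 13 to 14 Mb with 9 broad peaks and from 6 to 7 Mb with 7 held 16 of the 52. The first window held none.

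Broad did not always mean strong. Of the 52 broad peaks of X, 27 had a q-value below 1e-20, and 7 had one of 1e-05 or above. Among II to V, 12 of 176 broad peaks were as weak, with 2 on II, 6 on III, 2 on IV and 2 on V. The weakest on X was X:5780713-5782513, with 1801 bp and a q-value of 0.00335, and another at X:13917073-13918557 lay beside the site ranked 4. Above 4 kb X held 7 peaks, against 2 on II, 1 on III, 4 on IV and 4 on V.

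The median distance between neighbouring sites was larger on X than on each of II to V, while the mean was larger on V. The median distance between successive midpoints was 9.73 kb on X (interval 8.50 to 11.6 kb) and 7.66 kb on II to V (7.05 to 8.17 kb), with 7.06 kb on IV and 8.73 kb on V as the autosomal extremes. The interval of V, 7.31 to 10.5 kb, overlapped that of X. The mean distance was 21217 bp on X, 17716 bp on II, 16222 bp on III, 17962 bp on IV and 23985 bp on V. Distances of up to 2 kb made up 18.01% on X and 21.7% on II to V, and those of 5 to 10 kb 12.8% on X and 14.9% on II to V. Distances of 10 to 20 kb made up 17.0% on X and 15.01% on II to V, and those of 20 to 50 kb 21.5% on X and 19.6% on II to V. At 2 to 5 kb the shares were 19.57% and 19.38%. Single autosomes ranged from 18.14% on V to 22.99% on IV up to 2 kb, and from 17.57% on III to 21.35% on V at 20 to 50 kb. X lay just outside both ranges, next to V. It lay inside the ranges at 5 to 10 kb (12.51% on V to 17.77% on II) and at 10 to 20 kb (12.97% on V to 18.04% on III). A peak without another midpoint within 20 kb was found 92 times on X, or 11.0%, against 9.74% on II to V and 13.4% on V alone. These isolated peaks had a median width of 456 bp on X and 379 bp on II to V. Their median q-value was 1.35e-05 on X and 4.17e-05 on II to V together. By single chromosome it was 4.22e-06 on II, 6.87e-06 on III, 1.13e-05 on IV and 0.000219 on V. X thus lay above II, III and IV and below V alone.

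By midpoints the share of peaks with a close neighbour was lower on X than on II, III and IV and close to that on V, and by edges the shares drew closer. Another midpoint within 2000 bp was present for 263 peaks of X, or 31.5% (interval 28.4% to 34.8%), against 38.5% on II, 39.5% on III, 39.1% on IV and 31.4% on V. This ordering depended on how distance was measured. Measured between edges, a neighbour within 2000 bp was present for 43.9% of the peaks on X and 45.4% on II to V. After gaps of up to 500 bp had been joined, the share by midpoints was 25.5% on X and 24.6% on II to V. That joining removed 39 of 834 peaks on X, or 4.68%, against 9.28% on II, 9.19% on III, 8.24% on IV and 7.45% on V. Pairs of peaks separated by 500 bp or less were thus scarcer on X. How far the wider peaks of X account for its distances between midpoints was not tested.

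The share of strong peaks with another midpoint at short range was lower on X than on II to V. Among peaks with a q-value below 1e-20, another midpoint lay within 2000 bp for 19 of 77 on X, or 24.7% (interval 15.6% to 35.8%), and for 161 of 338 on II to V, or 47.6% (42.2% to 53.1%). The single autosomes had 49.3% on II, 53.2% on III and 49.0% on IV, and on V 36 of 90 had such a neighbour (interval 29.8% to 50.9%, which overlapped that of X). Among the strong peaks under 1300 bp such a neighbour was present for 15 of 50 on X and for 126 of 236 on II to V (53.4%). Between edges the shares of all strong peaks were 58.4% on X and 68.6% on II to V. These intervals overlapped (46.6% to 69.6% on X and 63.4% to 73.6% on II to V). Under 1300 bp, edges gave 48% on X (33.7% to 62.6%) and 66.5% on II to V (60.1% to 72.5%). At 1300 bp or more the order by edges turned round, with 77.8% on X and 73.5% on II to V, again with overlapping intervals. By midpoints these wide strong peaks had 14.8% on X and 34.3% on II to V. For q-values between 1e-20 and 1e-05 the shares by midpoint were 36.3% on X and 39.3% on II to V. Strong peaks of X also lay further from each other, with a median of 144 kb on X and 94.98 kb on II to V, and 22 of the 77 had another strong peak within 20 kb, against 149 of 338. This split by strength was made after the values had been seen.

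**Figure D5:**
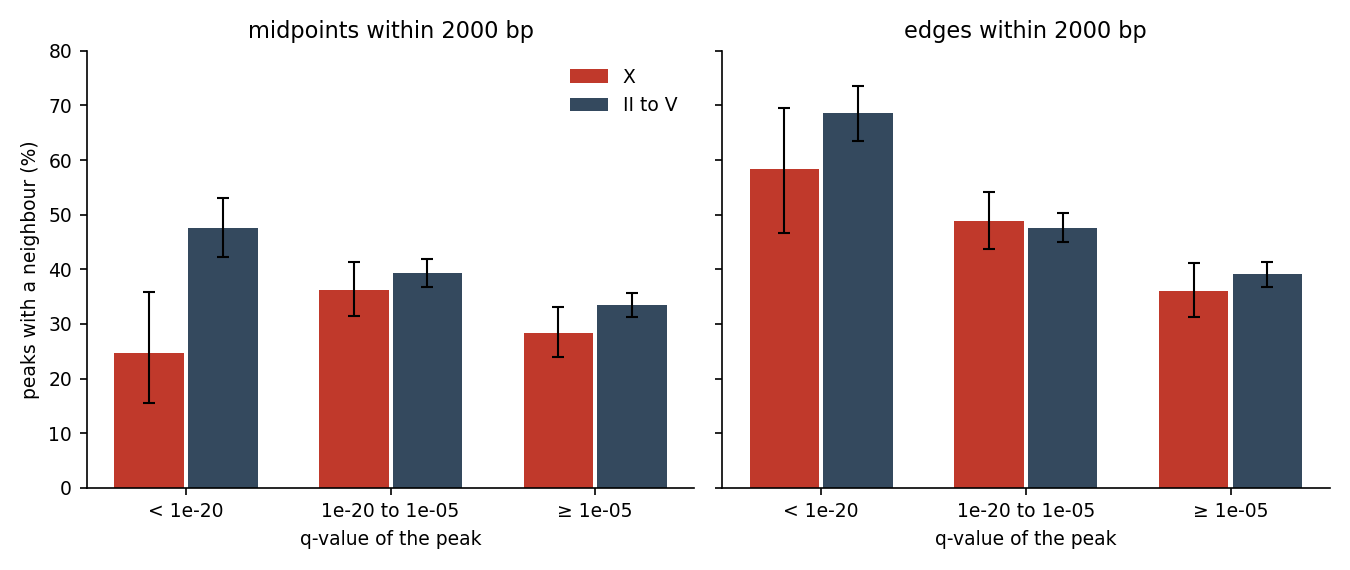
Share of peaks in percent (vertical axis) with another peak within 2000 bp, by class of q-value (horizontal axis), on X (red) and on II to V (dark blue), measured between midpoints (left) and between edges (right), with exact binomial 95% intervals. By midpoints, the peaks below 1e-20 had 24.7% on X and 47.6% on II to V, and between edges 58.4% on X and 68.6% on II to V.

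Longer runs of closely spaced peaks held a smaller share of the peaks on X than on II to V when distance was taken between midpoints. Runs of at least 3 peaks with midpoints no more than 2000 bp apart numbered 23 on X and held 83 peaks, or 9.95%, against 15.2% of the peaks on II to V. The autosomes ranged from 12.4% on V to 16.5% on II. Of the 23 runs, 13 had 3 peaks, 8 had 4, 1 had 5 and 1 had 7. None contained any of the 15 strongest peaks of X, but 5 of these are wider than 4 kb and cannot have another midpoint within 2000 bp, since peaks do not overlap. Between edges no more than 2000 bp apart, runs of at least 3 peaks numbered 47 on X. They held 20.4% of its peaks, against 22.6% on II to V, and 3 of the 15 strongest peaks of X lay in them. Among the 15 strongest peaks of each autosome, such runs held 9 on II, 8 on III, 5 on IV and 9 on V. In 20 of the 23 runs by midpoints the leading q-value was 1e-20 or above. The leftmost run began at 4.14 Mb, and it was the single run in the first 25% of X.

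The longest run, X:13349385-13358926, held 7 peaks on 9.54 kb, of which 6.04 kb were covered. It was led by X:13356202-13356872 (671 bp, q-value 2.66e-26), and its other 6 peaks had q-values between 1.65e-08 and 0.00142. The next, X:13004435-13009951, held 5 peaks and was led by a q-value of 1.39e-13. The 3 leftmost runs of 4 peaks were X:4138605-4142552 (leading q-value 4.79e-20), X:6938169-6942156 (7.74e-07) and X:7155096-7161041 (2.95e-18). The longest run was also the core of the densest 20 kb of X, X:13348292-13368563, which held 10 peaks that covered 7.08 kb. A peak of 433 bp (X:13348292-13348724, q-value 2.92e-20) bordered the run on its left. On its right, after 8.53 kb, followed a pair of weak peaks, X:13366947-13367252 (1.70e-05) and X:13368264-13368563 (0.00342). The densest 20 kb held 11 peaks on II, 9 on III, 14 on IV and 9 on V, so X lay within the autosomal range.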

How the data were processed

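Per the file headers, positions are in WormBase WS180 coordinates, and PeakSeq, which calls regions enriched in ChIP over input, is named on each line. The authors deposited 1 q-value per peak, used here for ranks and cut-offs inside the list alone. How the replicates were combined, the aligner, the filters and the versions are not given in the sources used here. The other deposited values are start and end, counted from 1. No genome of this build was used, so no sequence or motif is given.

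Widths, midpoints, windows, distances and joined regions were computed with Python 3.11.15, numpy 2.4.6, pandas 2.3.3 and scipy 1.17.1 and checked on a simulated list, where 10 of 10 built-in values were recovered. Chromosome lengths ran to the last peak end. Chromosome I entered as an alternative. Regions named are the 15 strongest and 5 widest peaks of X, extreme windows, the longest runs and distances, the densest 20 kb, and the strongest and widest peak of each autosome. The chromosome and the lists were chosen with earlier results of these data known. Alternatives were stricter q-values, joined gaps, other windows, distances and bounds, and each autosome left out.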

Additional observations from a re-analysis of the deposited data

How the results depend on the processing

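No paired analysis was possible because both replicates are merged into 1 list, and none could be left out. A value counted as moved when it left the 95% interval of its main value, or changed by over 1.5 times for counts and covered shares. By this measure 29 of 55 alternatives moved nothing and 26 moved a value, most of them by construction, since fewer peaks, another distance or another bound was used. Peaks with q-values below 1e-05 gave 10.02% broad peaks on X, 22.3% with a neighbour, a median distance of 19.6 kb, 2.05% of X covered and 40 peaks in the fullest window. Peaks below 1e-20 gave 35.1% broad, 5.19% with a neighbour, 144 kb, 0.646% covered, a width ratio of 1.40 and 41.6% in the middle 33.3% (51.8% on II to V). Joining gaps of up to 500 bp gave 8.55% broad (8.89% on II to V) and 25.5% with a neighbour (24.6% on II to V), so that X changed sides in both, and 17.6% of windows of X above every autosomal window, against 64.7%. With windows of 500 kb that share was 11.4%, and the emptiest window held 10 peaks per Mb. With windows shifted by 500 kb the emptiest held 34 peaks, against 20. Bounds of 1000 and 2000 bp gave 13.3% and 2.76% broad on X and 8.58% and 2.31% on II to V. Neighbours within 1000 bp, within 5000 bp and between edges gave 6.00%, 60.7% and 43.9% on X and 12.4%, 62.97% and 45.4% on II to V. For strong peaks of X, edges gave 58.4% and 5000 bp gave 76.6% (81.7% on II to V), and for runs of 3 or more on X edges gave 20.4% (22.6% on II to V), all chosen after seeing the data. Over the alternatives the density ratio ran from 0.818 without chromosome V, the only one that moved it, to 0.957 for q-values below 1e-05. It stayed below 1 and the width ratio above 1 in all alternatives run. Neither depth nor detection limit is known.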

Other observations

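Very narrow calls were rare on X. Under 100 bp there were 6 peaks on X, or 0.719%, against 11 on II, 18 on III, 46 on IV and 21 on V, or 2.70% of II to V together. The narrowest, X:16610194-16610196, was 3 bp wide with a q-value of 0.00398, and 2 others, X:9581803-9581818 and X:14792672-14792687, were 16 bp wide each. The q-values of all 6 lay between 0.000851 and 0.00799. The weakest peak of X was X:9510269-9510536 (268 bp, q-value 0.0098). No peaks overlapped on X, and the smallest gap between them was 220 bp, against 200 bp in the whole list.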
